A study of Mus musculus with 14 samples.

Results

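Regulatory T cells (Tregs) that infiltrated Yumm1.7 melanoma, a mouse melanoma line grown as a tumor, were compared with Tregs from lymph node (LN), both from wild-type mice. The comparison took every gene with at least 1 FPKM, a read density scaled by transcript length and library depth, in 3 or more of the 7 libraries, 3 titled WT tumor (numbers 2, 3 and 4) and 4 titled LN (numbers 1 to 4). This rule kept 8740 of the 22255 genes in the files. Of the 8740, 4727 reached 1 FPKM in all 7 libraries, while 56 entered through WT tumor libraries only and 331 through LN libraries only. At the edge of the rule, 869 of the genes kept reached 1 FPKM in exactly 3 libraries, and 974 genes left out reached it in exactly 2.

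All 7 libraries came from mice of the strain FoxP3-YFPCre+/+, genotype WT (Foxp3-YFP+), aged 8 weeks, so both groups carry the same yellow fluorescent reporter and Cre recombinase at the Foxp3 gene. Low-input total RNA was made into libraries with Smart-Seq2, a method that copies whole transcripts. The series also holds 4 spleen libraries of the same genotype and 3 libraries of Tregs from the same melanoma in CD36floxed FoxP3-YFPCre+/- mice (KO tumor), labelled CD36 KO. The spleen libraries helped here to estimate the spread and enter no difference. The stated aim of the series was to find how Treg gene expression varies between these tissues. The labels do not say that replicates came from separate mice, which lymph nodes were taken, or whether the LN mice carried tumors. The p-values therefore cover only how much these libraries varied, and that variation may be technical.

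Tregs are CD4 T cells that restrain other lymphocytes under the transcription factor Foxp3. In lymph nodes most of them are resting cells that recirculate, held in that state by factors such as Id3 and Bcl2. In tissues and tumors, antigen and local signals turn them into effector Tregs, which carry receptors such as 4-1BB, ICOS and KLRG1 and release products such as IL-10 and amphiregulin.

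Library depth and some RNA classes differed between the groups. Depth, read from the steps between low values, was 10.7 to 14.4 M (mega) reads in WT tumor and 18.4 to 21.4 M reads in LN, so all WT tumor libraries were shallower. Genes at 1 FPKM numbered 7469 to 7687 in WT tumor and 8091 to 8307 in LN. Globin RNA made up 0.0382, 2.0 and 1.47% of all FPKM in WT tumor 2 to 4 and 0.0155 to 0.234% in LN. The part of depth and of these shares in the differences below was not tested. Tissue, cell and library preparation and depth cannot be told apart between WT tumor and LN.

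Treg markers were present in every library. Summed over 7 Treg markers, levels were 709 to 863 FPKM in WT tumor and 419 to 480 in LN, and 1 of the 7, the T cell receptor chain gene Cd3e, passed the test, higher in WT tumor. The markers did not move as 1: Tnfrsf18 stood at 318, 159 and 403 FPKM in WT tumor 2 to 4 and 82.6 to 181 in LN. Foxp3 stood lower in every WT tumor library than in any LN library, and Il2ra overlapped, as given below. Of the other cell types, the neutrophil list had 6 of its 10 markers at 0 in all 7 libraries, S100a9 and Elane among them. The melanoma markers summed to 0.410 to 1.96 FPKM in WT tumor and 0.0734 to 3.86 in LN, with Mlana, Dct, Tyrp1 and Sox10 at 0 throughout. Macrophage markers summed to 162 to 270.1 FPKM in WT tumor and 149 to 274.0 in LN. Most of that was Ctss, a lysosomal protease gene, at 162, 151 and 165 in WT tumor 2 to 4 and 142, 235, 185 and 251 in LN 1 to 4, in FPKM. Fcer1g, a receptor chain of myeloid and NK cells, reached 78.0 FPKM in WT tumor 2 and at most 2.39 in the other 6. Few of these markers were tested: 3 of 15 for macrophages, 2 of 10 for dendritic cells, 1 of 10 for neutrophils, 6 of 12 for B cells and 1 of 10 for fibroblasts or endothelial cells. None of those tested passed, and Fcer1g was not tested. Lyz2, of the macrophage list, stood at 19.9, 0 and 0.164 in WT tumor 2 to 4 and 0.0741, 8.07, 0.11 and 17.7 in LN 1 to 4, in FPKM. Erythroid markers summed to 225 to 11899 FPKM in WT tumor and 79.0 to 1192 in LN, and 1 of 4 tested passed, the alpha globin gene Hba-a2 (3.89 ± 0.93, adjusted p = 0.0366, with overlap; its call ended without any 1 library other than LN 3 and WT tumor 2, adjusted p 0.124 to 0.142). Markers of CD8 T or NK cells and of conventional helper T cells stood higher in WT tumor, as given beside the genes they concern.

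Of the 8740 genes, 315 (3.6%) passed the test, limma on log2(FPKM + 1) with adjusted p below 0.05. Of these 189 (2.16%) were higher and 126 (1.44%) lower in WT tumor than in LN (n = 3 and 4). Groups of libraries that did not overlap were more common: all WT tumor values lay above all LN values in 735 genes (8.41%) and below them in 796 (9.11%). The median log2 difference over all 8740 genes was -0.12. Among genes called higher, 24 had entered through WT tumor libraries only, and among those called lower, 29 had entered through LN libraries only. These had to differ, so their differences and p-values are given as descriptions. Of the genes named below with a call, they are Acod1, Areg, Ccl3, Cdkn1a, Dusp14, Fosb, Itga1, Nr4a2, Plk2 and Pmaip1 through WT tumor. Through LN they are Dapl1, Gpat4, Il17rb, Traj6, Trbv17, Trbv29 and Treml2. The counts of each list that holds such a gene are also given without them, while the list medians include them. Nuclear protein-coding genes gave 149 higher and 101 lower of 7989. Small nuclear, nucleolar and other small RNA gave 23 higher and 1 lower of 187, and mitochondrial tRNA and rRNA 9 higher and 1 lower of 19. Leaving out 1 library gave 196 to 292 calls, with 196 without LN 2 and 200 without WT tumor 3. After rescaling to the total of protein-coding genes, 173 genes were higher and 173 lower. The counts in each gene list below are read against 2.16% higher and 1.44% lower among all 8740.

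**Figure D1:**
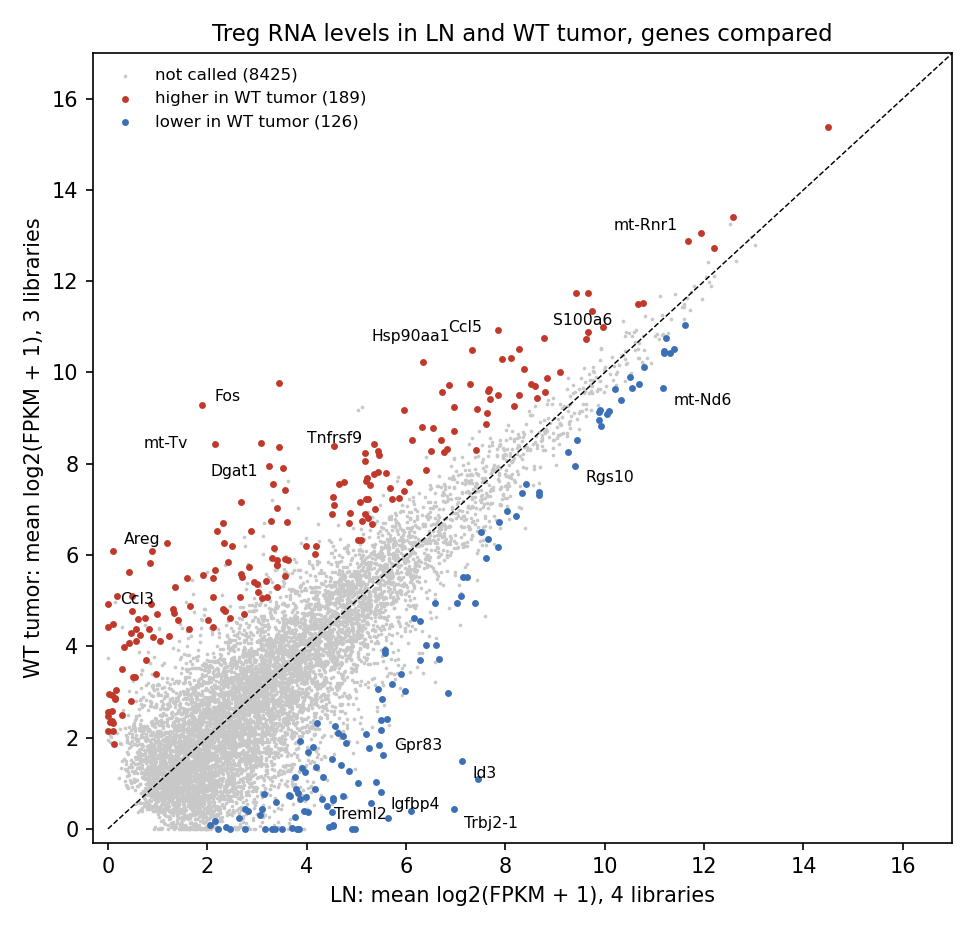
Mean log2(FPKM + 1) of 8740 genes in LN (x axis, 4 libraries) and WT tumor (y axis, 3 libraries). Grey points are genes that did not pass the test, red points the 189 higher and blue points the 126 lower in WT tumor, and the dashed line marks equal levels. Areg and Ccl3 lie near 0 on the LN axis and Treml2 near 0 on the WT tumor axis, and Fos lies farthest above the line.

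Treg lineage genes moved in both directions. Foxp3 (chromosome X, 7573644 to 7595245) stood at 12, 3.54 and 12 in WT tumor 2 to 4 and 32.3, 23.6, 15.4 and 25.4 in LN 1 to 4, in FPKM. All WT tumor values lay below all LN values, but the difference of -1.42 ± 0.55, adjusted p = 0.202, did not pass the test. In bulk samples, fewer cells of a type and less RNA per cell cannot be told apart. Of 21 lineage genes tested, 2 rose and 1 fell, with a median log2 difference of 0.33. Gpr83, a G protein-coupled receptor of the Treg signature, was lower in every WT tumor library. It stood at 2.39, 7.24 and 0.058 in WT tumor 2 to 4 and 47.4, 47.4, 37.3 and 51.6 in LN 1 to 4, in FPKM (-3.91 ± 0.61, adjusted p = 0.00221). Several defining genes did not pass. Il2ra, the high-affinity IL-2 receptor chain, stood at 44.2, 42.6 and 48.1 in WT tumor 2 to 4 and 47.1, 55.2, 45.3 and 52.1 in LN 1 to 4, in FPKM (-0.14 ± 0.50, adjusted p = 0.928). The inhibitory receptor gene Ctla4 was higher in every WT tumor library, 101, 113 and 76.1 in WT tumor 2 to 4 and 47.1, 55, 34.8 and 48.4 in LN 1 to 4, in FPKM, yet at 1.04 ± 0.62, adjusted p = 0.431, it did not pass. The 2 that rose were Tigit, an inhibitory receptor (3.92 ± 0.90, adjusted p = 0.0283), and Entpd1, the ectoenzyme CD39 that breaks down extracellular ATP (2.98 ± 0.71, adjusted p = 0.0342). Both calls ended when 1 library was left out: Tigit (without any 1 library other than LN 3 and LN 4, adjusted p 0.0598 to 0.0855) and Entpd1 (without any 1 library other than WT tumor 4, adjusted p 0.0674 to 0.139).

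Of the regulators of effector Tregs, 8 of 19 tested were higher and none lower (5 higher without WT tumor 3), with a median log2 difference of 1.73. Id2, which blocks E-protein transcription factors in effector cells, stood at 548, 415 and 398 in WT tumor 2 to 4 and 78, 83.8, 72.1 and 83.1 in LN 1 to 4, in FPKM. The difference was 2.49 ± 0.30, adjusted p = 0.000376, without overlap. Bhlhe40, a transcription repressor of activated T cells, was near 0 in LN. It stood at 33.8, 37.1 and 29.1 in WT tumor 2 to 4 and 0.237, 0.203, 1.14 and 0.172 in LN 1 to 4, in FPKM (4.62 ± 0.70, adjusted p = 0.00192). Nfil3, a bZIP factor of effector lymphocytes, stood at 123, 90.8 and 97.3 in WT tumor 2 to 4 and 1.46, 15.2, 2.23 and 3.71 in LN 1 to 4, in FPKM (4.39 ± 0.75, adjusted p = 0.00457). LN 2 was the highest LN library for Nfil3 and lay below every WT tumor library. Rora, a nuclear receptor of tissue lymphocytes, rose by 2.37 ± 0.42, adjusted p = 0.00611. Hif1a, the oxygen-regulated transcription factor, rose by 2.0 ± 0.37, adjusted p = 0.00747, at 152, 138 and 159 in WT tumor 2 to 4 and 48.8, 24, 36.7 and 41.6 in LN 1 to 4, in FPKM. Gata3, a factor of effector and tissue Tregs, rose by 1.73 ± 0.35, adjusted p = 0.0128. The others that rose were the Notch effector Rbpj (2.24 ± 0.49, adjusted p = 0.02) and Runx3 (1.85 ± 0.43, adjusted p = 0.0295). Calls ended without 1 library for Gata3 (without WT tumor 3, adjusted p = 0.0519), Rbpj (without LN 1, LN 4, WT tumor 2 or WT tumor 3, adjusted p 0.0507 to 0.091) and Runx3 (without any 1 library other than LN 1 and LN 3, adjusted p 0.0507 to 0.113).

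**Figure D2:**
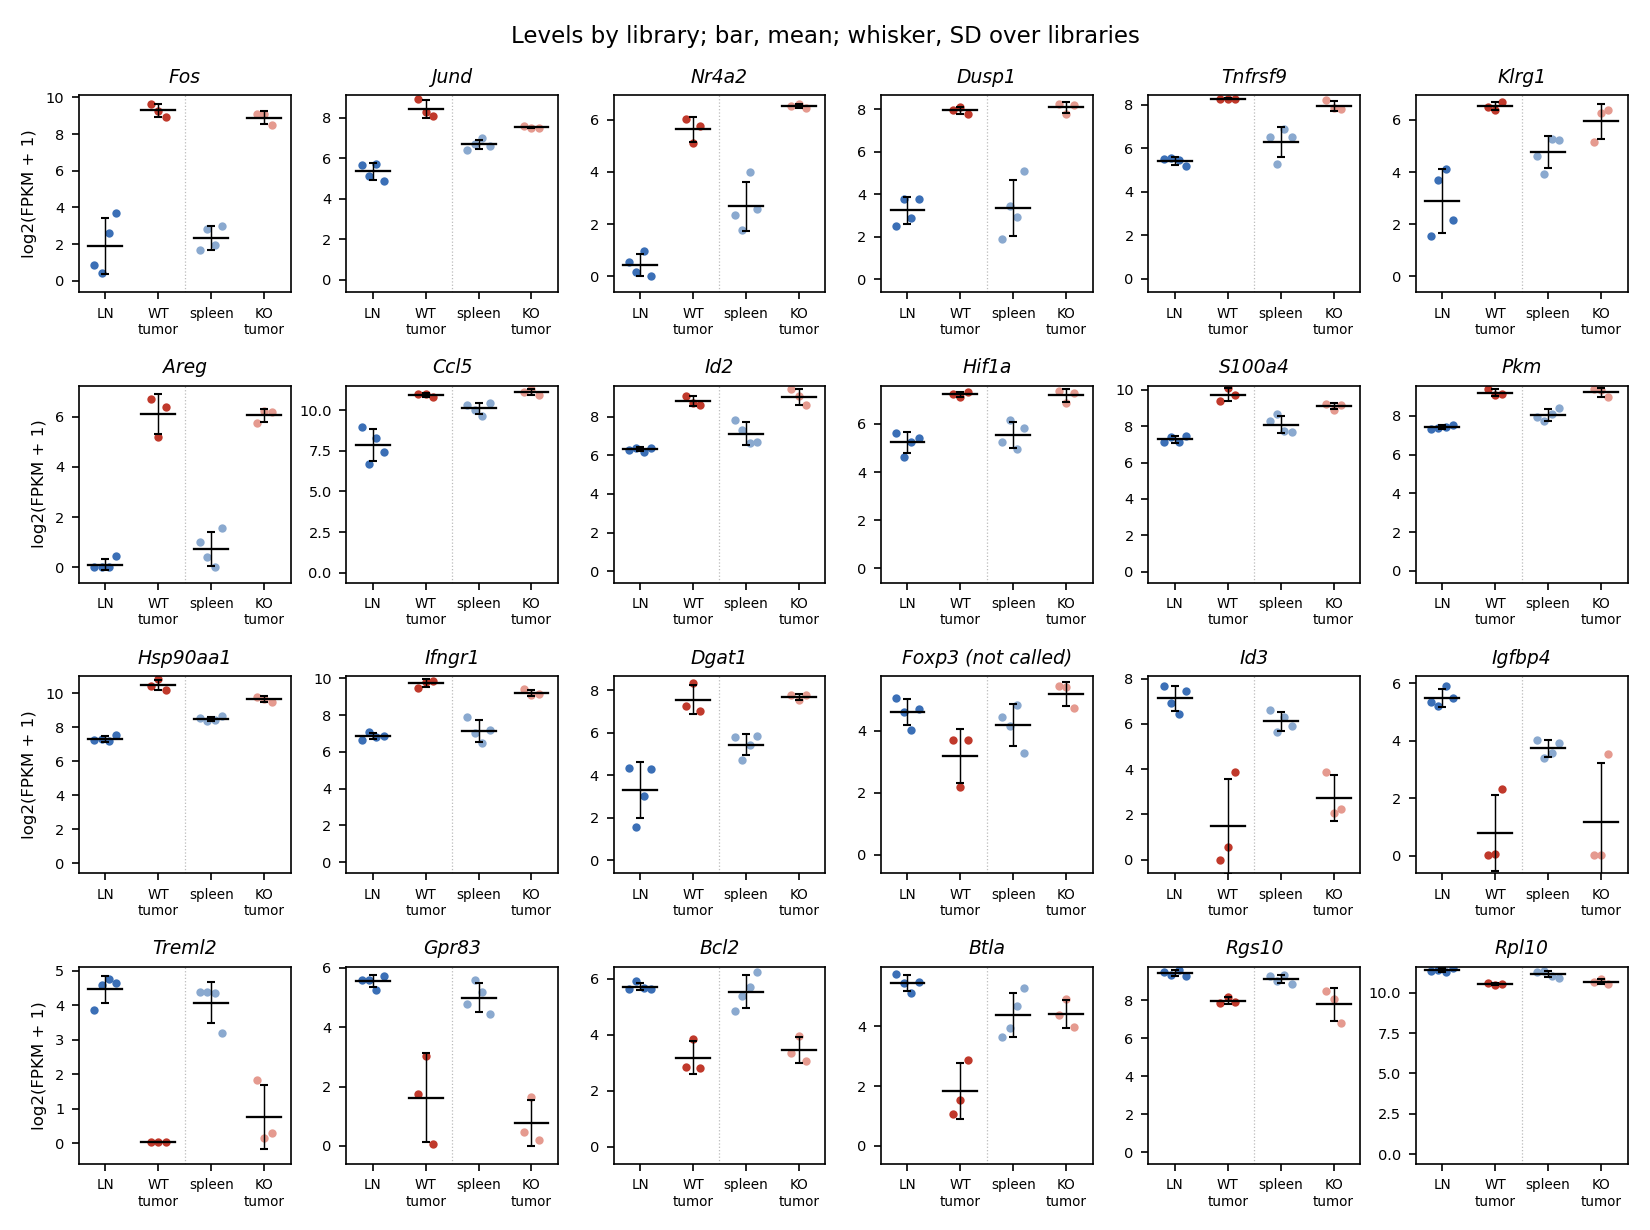
Levels of 24 genes as log2(FPKM + 1) in each library of LN, WT tumor, spleen and KO tumor. Points are libraries, bars means and whiskers SD over libraries. The dotted line parts the 2 groups compared here from the other 2. Fos, Areg and Tnfrsf9 show no overlap between LN and WT tumor, with KO tumor near WT tumor, while Foxp3 stood lower in WT tumor than in LN without passing the test.

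Costimulatory and checkpoint receptors gave 7 higher and 1 lower of 26 tested (3 higher without WT tumor 2 or without WT tumor 4), with a median of 0.97. Tnfrsf9 (chromosome 4, 150914562 to 150946102), which encodes the costimulatory receptor 4-1BB, varied little between libraries. It stood at 305, 312 and 311 in WT tumor 2 to 4 and 44.6, 46.6, 43.2 and 35.1 in LN 1 to 4, in FPKM. The difference was 2.85 ± 0.35, adjusted p = 0.000406. The lectin-like receptor Klrg1, carried by differentiated effector Tregs, stood at 90.2, 83.1 and 103 in WT tumor 2 to 4 and 1.96, 11.9, 16.5 and 3.43 in LN 1 to 4, in FPKM (3.65 ± 0.61, adjusted p = 0.00402). The groups did not overlap. Cd28, the main costimulatory receptor of T cells, rose by 1.64 ± 0.30, adjusted p = 0.00767, with 128, 149.8 and 109 in WT tumor 2 to 4 and 39.4, 41.3, 33.1 and 49 in LN 1 to 4, in FPKM. Cd274 (the ligand PD-L1), Icos, and Laptm5, which lowers receptor levels at the T cell surface, rose as well, by 3.4, 0.79 and 0.81 on the log2 scale. Btla, an inhibitory receptor of lymphocytes in lymphoid tissue, was the member that fell. It stood at 1.12, 1.92 and 6.39 in WT tumor 2 to 4 and 52.9, 42.9, 33.6 and 44.2 in LN 1 to 4, in FPKM (-3.62 ± 0.55, adjusted p = 0.00202). Of the 14 TNF receptor family members tested, Tnfrsf9 alone passed, and Tnfrsf4 (OX40) missed the threshold at 1.14 ± 0.30, adjusted p = 0.0531. Leaving out 1 library ended the calls of Cd274 (without LN 3, WT tumor 2 or WT tumor 4, adjusted p 0.0517 to 0.102), Icos (without any 1 library, adjusted p 0.0585 to 0.126) and Laptm5 (without any 1 library other than LN 1, adjusted p 0.0604 to 0.136).

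Among products of tissue Tregs, 6 of 14 tested were higher and none lower (2 without WT tumor 3), with a median of 1.81. Without Areg, which entered through WT tumor libraries only, 5 of 13 were higher. Areg (chromosome 5, 91139599 to 91148432), the epidermal growth factor family ligand amphiregulin that promotes tissue repair, stood at 102, 35.8 and 83.1 in WT tumor 2 to 4 and 0, 0, 0 and 0.359 in LN 1 to 4, in FPKM. It was listed at 0 in LN 1, 2 and 3, and the difference on the log2(FPKM + 1) scale was 5.98 ± 0.61, adjusted p = 9.43e-05. The antiinflammatory cytokine gene Il10 stood at 42.2, 12.8 and 23.4 in WT tumor 2 to 4 and 0.251, 0.452, 0 and 1.87 in LN 1 to 4, in FPKM (4.01 ± 0.99, adjusted p = 0.0409). Furin, a protease that activates TGF-beta, rose by 2.41 ± 0.50, adjusted p = 0.0155. Lgals1, the secreted lectin galectin-1, rose by 1.01 ± 0.25, adjusted p = 0.0366, at 2466, 1705 and 1984 in WT tumor 2 to 4 and 1018, 1152, 835 and 1042 in LN 1 to 4, in FPKM. The remaining members that rose were Klrg1, above, and Gzmb, below. The cytokine list (3 higher and 1 lower of 17, or 2 and 1 of 16 without Areg) also held Tnfsf8, the ligand of CD30, which rose by 1.96 ± 0.46, adjusted p = 0.0296, and Il16, a CD4 ligand that fell by 1.71 ± 0.41 on the log2 scale, adjusted p = 0.0355. Lost when 1 library was left out were the calls of Il10 (without any 1 library, adjusted p 0.0548 to 0.142), Furin (without WT tumor 2 or WT tumor 3, adjusted p 0.0552 to 0.0811), Lgals1 (without any 1 library, adjusted p 0.0595 to 0.14), Tnfsf8 (without any 1 library other than LN 2, adjusted p 0.0531 to 0.104) and Il16 (without any 1 library other than WT tumor 3, adjusted p 0.0629 to 0.123).

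Of 33 chemokine genes in the files 6 were tested, and 3 of them rose, or 2 of 4 without genes that entered through 1 group only. Ccl5, which draws T cells and monocytes, was abundant in both groups, at 2016, 2061 and 1765 in WT tumor 2 to 4 and 499.8, 103, 312 and 169.6 in LN 1 to 4, in FPKM (3.08 ± 0.40, adjusted p = 0.000653). Ccl3, a monocyte attractant, stood at 7.66, 99.4 and 31.8 in WT tumor 2 to 4 and 0, 0, 0 and 0 in LN 1 to 4, in FPKM (4.93 ± 0.89, adjusted p = 0.00677). It was listed at 0 in every LN library, so no fold is given. Cxcl10, an interferon-induced ligand of CXCR3, stood at 31.6, 17.5 and 46.3 in WT tumor 2 to 4 and 0.401, 6.53, 0.0306 and 0 in LN 1 to 4, in FPKM (4.07 ± 0.80, adjusted p = 0.0109). Of 14 chemokine receptors tested Cxcr4, the receptor that anchors cells to CXCL12, rose by 3.6 ± 0.65, adjusted p = 0.00711, at 14.4, 28.2 and 14.4 in WT tumor 2 to 4 and 0.442, 2.82, 0.0515 and 0.0604 in LN 1 to 4, in FPKM. Ccr2 stood at 2.43 ± 0.68, adjusted p = 0.0712, and did not pass.

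Cytotoxic granule genes gave 3 higher and none lower of 12 (1 higher without LN 3, without LN 4 or without WT tumor 3). Nkg7, a granule membrane protein gene, stood at 896, 571 and 971 in WT tumor 2 to 4 and 330.1, 158, 191 and 166 in LN 1 to 4, in FPKM (1.97 ± 0.37, adjusted p = 0.00839). Gzmb, the protease granzyme B, stood at 15.6, 48.2 and 72.4 in WT tumor 2 to 4 and 8.64, 1.08, 0.0328 and 0.999 in LN 1 to 4, in FPKM (3.95 ± 0.93, adjusted p = 0.0317), and Srgn, the granule proteoglycan, rose by 1.22 ± 0.28, adjusted p = 0.0258. Markers of CD8 T or NK cells moved with these genes. Summed over 9 markers they reached 64.1 to 198 FPKM in WT tumor and 0.172 to 93.8 in LN, and their score (mean log2(FPKM + 1)) was 1.47 to 1.71 against 0.0264 to 0.964, without overlap. Cd8b1, the CD8 beta chain, stood at 14.3, 43.8 and 62.6 in WT tumor 2 to 4 and 3.42, 5.46, 2.54 and 0.11 in LN 1 to 4, in FPKM (3.43 ± 1.04, adjusted p = 0.0945), while the alpha chain gene Cd8a did not exceed 1.57 FPKM in any of the 7, and Ncr1 was at 0 in all. Conventional helper markers scored 2.17 to 2.34 in WT tumor and 1.16 to 2.06 in LN. Among them Ifng, the interferon-gamma gene, stood at 166, 42.5 and 156 in WT tumor 2 to 4 and 13.9, 7.16, 1.0 and 23.8 in LN 1 to 4, in FPKM (3.57 ± 1.11, adjusted p = 0.103), and Il4 and Il21 were at 0 in all 7. No tested member of either list passed, 0 of 2 and 0 of 6, and their part in the results for Ccl5, Nkg7 and Gzmb was not tested. When only the WT tumor and LN libraries were fitted, Cd8b1 and Ifng did pass (adjusted p = 0.0344 and 0.0448), and Ifng also passed with a pseudocount of 5 (adjusted p = 0.0304). For some genes the call ended without 1 library, namely Gzmb (without any 1 library other than LN 1 and WT tumor 2, adjusted p 0.08 to 0.107) and Srgn (without any 1 library other than LN 2 and WT tumor 4, adjusted p 0.0563 to 0.102).

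Some genes of the first response to receptor signals rose, and Fos had the largest difference of the 8740. AP-1 is a family of paired Fos and Jun proteins that bind DNA within minutes of stimulation. Of 22 AP-1 and related bZIP genes tested, 7 rose and none fell (5 without WT tumor 3), with a median of 2.07. Without those that entered through 1 group only, 6 of 20 rose. Fos (chromosome 12, 85473890 to 85477273) stood at 810.1, 615 and 485 in WT tumor 2 to 4 and 0.846, 0.328, 5.07 and 11.9 in LN 1 to 4, in FPKM. The groups did not overlap, and the difference was 7.39 ± 0.72, adjusted p = 9.43e-05. Its partner Jun stood at 88.6, 111 and 44.1 in WT tumor 2 to 4 and 1.5, 0.434, 2.2 and 1.42 in LN 1 to 4, in FPKM (5.06 ± 0.57, adjusted p = 0.000214). Jund, the Jun protein of resting cells, rose from a higher base, at 482, 305 and 274 in WT tumor 2 to 4 and 50.5, 34.4, 51.3 and 28.3 in LN 1 to 4, in FPKM (3.07 ± 0.31, adjusted p = 9.43e-05). Fosb was listed at 0 in 3 LN libraries and at 39.3, 11.8 and 21.1 FPKM in WT tumor (4.39 ± 0.55, adjusted p = 0.000505). Nfil3, above, is also a bZIP gene. Fosl2 and Junb rose by 3.88 and 2.64. Their calls ended without 1 library: Fosl2 (without any 1 library other than LN 4 and WT tumor 2, adjusted p 0.0796 to 0.12) and Junb (without LN 2, LN 4, WT tumor 3 or WT tumor 4, adjusted p 0.0515 to 0.0897).

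Other immediate early genes gave 8 higher and none lower of 26 (5 without LN 1), with a median of 1.39. Without those that entered through 1 group only, Nr4a2, Cdkn1a and Plk2 among them, 5 of 23 were higher. Nr4a2, an orphan nuclear receptor induced by T cell receptor signals, stood at 63.7, 33 and 53.3 in WT tumor 2 to 4 and 0.451, 0.132, 0.944 and 0.0146 in LN 1 to 4, in FPKM (5.2 ± 0.62, adjusted p = 0.000376). Its relatives did not pass: Nr4a3 stood at 2.73 ± 0.79, adjusted p = 0.0783, and Nr4a1 at 1.83 ± 1.01, adjusted p = 0.39. Klf6, a zinc finger factor, rose by 3.87 ± 0.39, adjusted p = 9.43e-05, at 149.9, 199.5 and 169 in WT tumor 2 to 4 and 17.2, 7.96, 11.5 and 8.61 in LN 1 to 4, in FPKM. Gadd45b, a stress-induced activator of p38 kinase, stood at 209, 318 and 209 in WT tumor 2 to 4 and 1.63, 13.3, 11.7 and 34.8 in LN 1 to 4, in FPKM (4.4 ± 0.75, adjusted p = 0.00438). Pim1, a kinase induced by cytokines, rose by 2.73 ± 0.40, adjusted p = 0.00183, and Cdkn1a, the cell cycle inhibitor p21, by 3.23 ± 0.54, adjusted p = 0.00416. Phosphatases that end MAP kinase signals followed: 5 of 16 rose and none fell (4 without LN 1, WT tumor 2 or WT tumor 3, and 4 of 15 without Dusp14). Dusp1 stood at 253, 274 and 218 in WT tumor 2 to 4 and 4.72, 12.7, 6.31 and 12.9 in LN 1 to 4, in FPKM (4.72 ± 0.64, adjusted p = 0.000976), and Dusp5 at 123, 127 and 49 in WT tumor 2 to 4 and 1.73, 2.9, 8.03 and 3.5 in LN 1 to 4, in FPKM (4.34 ± 0.59, adjusted p = 0.000976). Dusp16 and Dusp14 rose by 4.3 and 3.81, with no LN library above 1.71 FPKM for either. Rgs2, which dampens G protein signals, rose by 4.93 ± 0.75, adjusted p = 0.00192, at 371, 300.1 and 324 in WT tumor 2 to 4 and 18.3, 7.27, 6.87 and 10.05 in LN 1 to 4, in FPKM. Its family member Rgs10 fell by 1.44 ± 0.18 on the log2 scale, adjusted p = 0.000406, at 227, 285 and 237 in WT tumor 2 to 4 and 702, 627, 776 and 605 in LN 1 to 4, in FPKM. Zfp36, which marks AU-rich mRNA for decay, rose by 2.89 ± 0.44, adjusted p = 0.00192. Ier2, an early response gene, and Plk2, a kinase induced by stress, rose by 2.19 and 2.48 on the log2 scale, and Dusp4 by 3.71. Calls ended without 1 library for Ier2 (without LN 1, WT tumor 2, WT tumor 3 or WT tumor 4, adjusted p 0.0538 to 0.142), Plk2 (without LN 1, LN 2, LN 3 or LN 4, adjusted p 0.0718 to 0.0768), Ppp1r15a (without any 1 library other than LN 3, adjusted p 0.0708 to 0.109) and Dusp4 (without LN 1, WT tumor 2 or WT tumor 3, adjusted p 0.0553 to 0.0782).

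Some promoters of these genes share a letter string. The cyclic AMP response element is the 8 letters TGACGTCA, searched, like the other strings, on both strands in the 250 bases before the start. It was found in 6 of the 118 genes called higher with a promoter in RefSeq (5.08%) and 2 of 83 called lower (2.41%). Of 6442 genes compared 195 held it (3.03%), and of 27025 promoters in all 439 (1.62%). The 6 include Areg and Plk2, which entered through WT tumor libraries only and had to differ. The share is not given without such genes, so it is a description only. This element is the site of CREB and ATF proteins, which bind after kinase signals. The 4 stretches below show it in capitals within the promoters of Areg, Dusp1, Plk2 and Ppp1r15a, an eIF2alpha phosphatase subunit induced by stress, each read 5′ to 3′ on the gene's strand from RefSeq, GRCm38.p6. A match is a description of letters and says nothing of binding. It is one of 17 strings searched after the values were seen. The following 2 were no more common among higher genes than among all compared: the heat shock element was found in none of the 118 and 0.295% of genes compared, and the hypoxia response element ACGTG in 21.2% and 23.3%.
Areg, chr5:91139508-91139575, plus strand: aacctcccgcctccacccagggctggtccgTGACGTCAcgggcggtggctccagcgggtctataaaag
Dusp1, chr17:26508578-26508645, minus strand: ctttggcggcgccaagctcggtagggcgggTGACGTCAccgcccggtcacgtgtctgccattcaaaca
Ppp1r15a, chr7:45526269-45526310, minus strand: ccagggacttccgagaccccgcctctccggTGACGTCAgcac
Plk2, chr13:110394952-110395019, plus strand: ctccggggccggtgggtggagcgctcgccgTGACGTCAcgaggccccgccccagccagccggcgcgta
These 4 genes stood at 0 to 12.9 FPKM in LN and 1.54 to 274 FPKM in WT tumor. The other 2 with the string are Ldha and Ccnl1, a cyclin of RNA splicing, which rose by 1.36 ± 0.32, adjusted p = 0.0308, a call that ended without any 1 library other than LN 4 and WT tumor 3, adjusted p 0.0753 to 0.103. The AP-1 string TGANTCA was found in 11 promoters of higher genes (9.32%), 3 of lower genes (3.61%), 3.96% of genes compared and 6.87% of all promoters. The 11 included Tnfaip3, Cxcl10, Gzmb and Rsad2.

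NF-kB, the factor activated by T cell receptor and TNF receptor signals, induces its own inhibitors. Of 25 subunits, inhibitors and targets tested, 4 rose and none fell (2 without LN 1, LN 2, LN 4, WT tumor 3 or WT tumor 4), with a median of 0.34. Tnfaip3, the ubiquitin-editing inhibitor A20, stood at 34.8, 10.7 and 17.3 in WT tumor 2 to 4 and 0.0408, 0.387, 1.07 and 0.19 in LN 1 to 4, in FPKM (3.84 ± 0.74, adjusted p = 0.00959). Nfkbiz, a nuclear IkB protein, stood at 132, 121 and 71.8 in WT tumor 2 to 4 and 20.2, 6.54, 9.17 and 12.5 in LN 1 to 4, in FPKM (3.12 ± 0.45, adjusted p = 0.00158). Nfkbia, the classical inhibitor IkB alpha, rose by 1.79 ± 0.41, adjusted p = 0.027, and Traf1, an adaptor of 4-1BB, by 1.3 ± 0.33, adjusted p = 0.0447. Leaving out 1 library ended the calls of Nfkbia (without any 1 library other than LN 3 and WT tumor 2, adjusted p 0.0532 to 0.119) and Traf1 (without any 1 library other than WT tumor 2, adjusted p 0.0733 to 0.146). Several NF-kB strings were searched, and the one given next, picked after the values were seen, was the most common among higher genes. The others were found in 1 or 2 of the 118 (0.847 or 1.69%), against 0.0776 to 0.466% of genes compared. The string GGAATTTCC, or GGAAATTCC on the other strand, was found in 20 of 6442 genes compared (0.310%) and 79 of all promoters (0.292%). It was found in none of 83 promoters of lower genes and in 5 of the 118 of higher genes (4.24%). The 5 are AW112010, Acod1, Cxcl10, Nfkbia and Tnfaip3. Of these, 4 are shown with the string in capitals, on the gene's strand as above.
Tnfaip3, chr10:19015411-19015464, minus strand: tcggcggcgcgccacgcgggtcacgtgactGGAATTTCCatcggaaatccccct
Nfkbia, chr12:55492648-55492706, minus strand: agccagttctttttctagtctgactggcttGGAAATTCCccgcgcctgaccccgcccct
Cxcl10, chr5:92349009-92349077, minus strand: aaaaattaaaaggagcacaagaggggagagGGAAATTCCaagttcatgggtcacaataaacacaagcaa
Acod1, chr14:103046897-103046965, plus strand: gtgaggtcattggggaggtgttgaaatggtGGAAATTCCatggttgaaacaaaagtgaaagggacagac
All 5 genes were drawn from those called higher, so that they passed was fixed by this choice. The share of 4.24% includes Acod1, which had to differ. Acod1, which makes the metabolite itaconate and entered through WT tumor libraries only, stood at 5.72, 107 and 12.5 in WT tumor 2 to 4 and 0, 0, 0 and 0 in LN 1 to 4, in FPKM and was listed at 0 in LN (4.42 ± 0.76, adjusted p = 0.0047). It is best known from activated macrophages, whose markers are given above, and their part in this result was not tested. AW112010, a gene induced by interferon and inflammation, was among the most abundant transcripts, at 8686, 9318 and 7782 in WT tumor 2 to 4 and 3880.1, 3987, 3508 and 4335 in LN 1 to 4, in FPKM (1.13 ± 0.22, adjusted p = 0.0105). Its call ended without WT tumor 3, adjusted p = 0.0557.

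Interferon response genes gave 5 higher and none lower of 49 tested (2 without WT tumor 2), and 40 of the 49 differences were above 0, with a median of 0.82. Rsad2, the antiviral enzyme viperin, stood at 40.8, 15.4 and 5.88 in WT tumor 2 to 4 and 1.01, 0.314, 0 and 0.202 in LN 1 to 4, in FPKM (3.65 ± 0.68, adjusted p = 0.00847). Ly6a, the surface protein Sca-1, stood at 3751, 3642 and 2977 in WT tumor 2 to 4 and 791, 826, 748 and 893 in LN 1 to 4, in FPKM (2.08 ± 0.31, adjusted p = 0.00183). Irf7, the factor that amplifies the response, rose by 2.48 ± 0.54, adjusted p = 0.0204, and Zbp1, a sensor of nucleic acids, by 2.0 ± 0.48, adjusted p = 0.0361. Ifit3b, an antiviral effector, stood at 20.7, 19.7 and 13.8 in WT tumor 2 to 4 and 0.375, 0.494, 0.558 and 8.53 in LN 1 to 4, in FPKM (3.0 ± 0.74, adjusted p = 0.0409). Ifngr1, the ligand-binding chain of the interferon-gamma receptor and the one cytokine receptor of 26 tested that rose, stood at 714, 907 and 943 in WT tumor 2 to 4 and 101, 135, 113 and 115 in LN 1 to 4, in FPKM (2.87 ± 0.29, adjusted p = 9.43e-05). Lost when 1 library was left out were the calls of Irf7 (without LN 3, LN 4, WT tumor 2 or WT tumor 3, adjusted p 0.052 to 0.0874), Zbp1 (without any 1 library other than LN 3 and WT tumor 3, adjusted p 0.089 to 0.125) and Ifit3b (without any 1 library other than LN 4, adjusted p 0.069 to 0.118). The interferon-stimulated response element, searched on both strands, was found in 8 promoters of higher genes (6.78%), 7 of lower genes (8.43%), 2.75% of genes compared and 3.04% of all promoters. The 8 include Plk2, which entered through WT tumor libraries only. In Rsad2, Ifit3b and Cxcl10 the element lies as shown in capitals, on the gene's strand.
Rsad2, chr12:26456533-26456602, minus strand: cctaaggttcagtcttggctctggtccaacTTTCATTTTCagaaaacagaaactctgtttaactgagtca
Ifit3b, chr19:34607739-34607842, plus strand: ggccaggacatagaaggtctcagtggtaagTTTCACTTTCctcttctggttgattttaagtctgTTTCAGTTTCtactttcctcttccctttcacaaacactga
Cxcl10, chr5:92349063-92349132, minus strand: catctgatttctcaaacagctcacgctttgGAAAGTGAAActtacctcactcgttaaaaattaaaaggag
Cxcl10 thus holds this string, the NF-kB string and the AP-1 string in its promoter window. Ifit3b holds the interferon string at 2 places.

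Of 37 chaperone genes tested 4 rose and none fell (3 without WT tumor 2 or WT tumor 3), with a median of 0.19. Hsp90aa1 (chromosome 12, 110690605 to 110702728), the inducible HSP90, had the smallest adjusted p of all genes, at 1399, 1811 and 1196 in WT tumor 2 to 4 and 152, 158, 144 and 188 in LN 1 to 4, in FPKM (3.18 ± 0.18, adjusted p = 1.31e-06). Hsp90ab1, its constitutive partner, rose by 1.66 ± 0.24, adjusted p = 0.00148, and Hspa8, the constitutive HSP70, by 1.02 ± 0.15, adjusted p = 0.00177. Dnajb1, an HSP40 cochaperone, rose by 2.38 ± 0.48, adjusted p = 0.0128. Of 24 genes of the unfolded protein and integrated stress response Ppp1r15a alone passed (3.57 ± 0.84, adjusted p = 0.0321). For some genes the call ended without 1 library, namely Dnajb1 (without WT tumor 2 or WT tumor 3, adjusted p 0.0507 to 0.0604) and Ppp1r15a (without any 1 library other than LN 3, adjusted p 0.0708 to 0.109).

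Of 19 S100, galectin, annexin and related genes 6 rose and none fell (4 without LN 1, LN 4 or any 1 WT tumor library), with a median of 1.01. S100a4, a calcium-binding protein of motile cells, stood at 672, 1085 and 851 in WT tumor 2 to 4 and 139, 168, 139 and 177 in LN 1 to 4, in FPKM (2.45 ± 0.26, adjusted p = 0.00013). S100a6, its neighbour 6.84 kb away on chromosome 3, stood at 1909, 1384 and 1967 in WT tumor 2 to 4 and 527, 418, 504 and 335 in LN 1 to 4, in FPKM (1.98 ± 0.22, adjusted p = 0.00019). Vim, the intermediate filament vimentin, rose by 1.48 ± 0.25, adjusted p = 0.00444, and Ahnak, a scaffold of the cell membrane, by 1.99 ± 0.39, adjusted p = 0.0109. The membrane-binding annexin Anxa2 rose by 2.06 ± 0.47, adjusted p = 0.0283. The 2 cytoplasmic actins were the members of 49 cytoskeleton genes that passed (4.08%, near the 3.6% of all genes), Actb by 0.83 ± 0.10, adjusted p = 0.000544, and Actg1 by 1.11 ± 0.17, adjusted p = 0.00183. Among 22 integrin and adhesion genes 2 rose, or 1 of 21 without Itga1. Itga1, the collagen-binding integrin chain of tissue T cells, stood at 1.73, 6.62 and 3.23 in WT tumor 2 to 4 and 0, 0, 0 and 0 in LN 1 to 4, in FPKM, listed at 0 throughout LN (2.15 ± 0.43, adjusted p = 0.0121). Emb, an adhesion partner of a lactate transporter, rose by 1.43 ± 0.31, adjusted p = 0.0217. Calls ended without 1 library for Anxa2 (without any 1 library other than LN 2 and LN 3, adjusted p 0.0583 to 0.105) and Emb (without any 1 library other than LN 2 and WT tumor 4, adjusted p 0.0525 to 0.102). Ahnak missed the threshold with the replicate number as a block (adjusted p = 0.0502).

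Glycolysis genes gave 5 higher and none lower of 22 (3 without LN 2), with a median of 1.06. Pkm, the pyruvate kinase gene, stood at 674, 538 and 569 in WT tumor 2 to 4 and 162, 168, 169.9 and 187 in LN 1 to 4, in FPKM (1.78 ± 0.20, adjusted p = 0.000214). Aldoa, the aldolase of glycolysis, stood at 419.6, 358 and 332 in WT tumor 2 to 4 and 82.4, 89.7, 83.4 and 35.9 in LN 1 to 4, in FPKM (2.41 ± 0.33, adjusted p = 0.00113). Tpi1, triose phosphate isomerase, rose by 3.07 ± 0.64, adjusted p = 0.0167, and Ldha, lactate dehydrogenase, by 1.1 ± 0.21, adjusted p = 0.00992. Slc16a3, the lactate exporter MCT4, stood at 12.1, 7.44 and 8.25 in WT tumor 2 to 4 and 0.19, 0.189, 2.23 and 0.0122 in LN 1 to 4, in FPKM (2.78 ± 0.56, adjusted p = 0.0132). Of 20 hypoxia response genes Hif1a and Bhlhe40 passed, and 18 of the 20 differences were above 0. Leaving out 1 library ended the calls of Tpi1 (without LN 2, WT tumor 2 or WT tumor 4, adjusted p 0.0542 to 0.0614), Ldha (without WT tumor 3, adjusted p = 0.0563) and Slc16a3 (without LN 2, adjusted p = 0.0511). Among 24 antioxidant genes 1 rose, Fth1, the heavy chain of the iron store ferritin, at 3255, 2694 and 2798 in WT tumor 2 to 4 and 1679.7, 1738, 1757 and 1403 in LN 1 to 4, in FPKM (0.83 ± 0.14, adjusted p = 0.00505).

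Lipid genes moved both ways. Cd36 (chromosome 5, 17781690 to 17888801), the fatty acid uptake receptor gene that the KO label names, was listed at 0 in all 7 libraries and was not tested. It stood at 0, 1.06 and 0 FPKM in KO tumor 1 to 3 and 0, 0.598, 4.47 and 2.17 FPKM in spleen 1 to 4. With 0 in WT tumor and a value above 0 in 1 library labelled KO tumor, these levels do not check that label. Of 18 lipid uptake, storage and lipolysis genes 2 rose and 2 fell, or 2 and 1 of 16 without those that entered through 1 group only, Gpat4 among them. Dgat1, which completes triglyceride synthesis, stood at 155, 319.5 and 131 in WT tumor 2 to 4 and 19.1, 1.96, 7.26 and 18.8 in LN 1 to 4, in FPKM (4.24 ± 0.63, adjusted p = 0.00183), and Lipe, hormone-sensitive lipase, at 94.3, 84.7 and 43.5 in WT tumor 2 to 4 and 7.32, 7.04, 16.8 and 8.01 in LN 1 to 4, in FPKM (2.81 ± 0.46, adjusted p = 0.00347). Fabp5, a cytosolic fatty acid binder, fell by 4.0 ± 1.02 on the log2 scale, adjusted p = 0.0461, and Gpat4, an early enzyme of glycerolipid synthesis, fell by 2.66 ± 0.54 on the log2 scale, adjusted p = 0.0134. No gene of fatty acid oxidation passed of 21 tested (median -0.85). Those with the smallest p were Etfa, which hands on electrons from acyl-CoA dehydrogenases (-2.29 ± 0.89, adjusted p = 0.206), and Decr1, which prepares unsaturated chains (-2.24 ± 0.96, adjusted p = 0.25). None of 13 PPAR receptors, partners and targets passed (median 0.06). Lost when 1 library was left out were the calls of Fabp5 (without any 1 library, adjusted p 0.0504 to 0.142) and Gpat4 (without WT tumor 3, adjusted p = 0.0604).

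Some genes of resting and recirculating T cells were lower: 7 of 28 fell and 1 rose (4 fell without LN 2, LN 4, WT tumor 2 or WT tumor 3), with a median of -0.90. Without Treml2 and Dapl1, which entered through LN libraries only, 5 of 26 fell. Id3 (chromosome 4, 136143497 to 136145755), an inhibitor of E proteins in naive and memory cells, stood at 0, 0.466 and 13.8 in WT tumor 2 to 4 and 205, 120.4, 85.7 and 175 in LN 1 to 4, in FPKM. WT tumor 4 was the highest WT tumor library, below every LN library, and the difference was -5.65 ± 0.74, adjusted p = 0.000714. Igfbp4, which binds insulin-like growth factors, stood at 0.0237, 0.0379 and 3.98 in WT tumor 2 to 4 and 39.3, 36.3, 58.9 and 44 in LN 1 to 4, in FPKM (-4.69 ± 0.59, adjusted p = 0.000513). Treml2, a receptor of the TREM family, was near 0 in all WT tumor libraries, at 0.0207, 0.033 and 0.0154 in WT tumor 2 to 4 and 13.6, 23, 26 and 23.8 in LN 1 to 4, in FPKM (-4.42 ± 0.52, adjusted p = 0.000307). Bcl2, the survival gene of resting lymphocytes, stood at 6.28, 13.6 and 6.08 in WT tumor 2 to 4 and 48.4, 59.6, 50.1 and 49.1 in LN 1 to 4, in FPKM (-2.53 ± 0.43, adjusted p = 0.00442). Within the same family the death-promoting gene Pmaip1 (NOXA) rose by 2.94 ± 0.55, adjusted p = 0.00801, from at most 0.0355 FPKM in LN. It was the one family member of 13 that rose, and none of 11 rose without genes that entered through 1 group only. Dapl1, the receptor gene Gpr18, and Ms4a4b, a membrane protein gene of T cells, fell by 4.45, 4.72 and 0.67 on the log2 scale. Klf2, which keeps T cells in circulation, went the other way, at 1213, 971 and 1056 in WT tumor 2 to 4 and 439, 306, 304 and 293 in LN 1 to 4, in FPKM (1.7 ± 0.26, adjusted p = 0.0019). Ccr7, a chemokine receptor of lymph node entry, stood at 79.8, 104 and 37.5 in WT tumor 2 to 4 and 55.2, 89, 146 and 116 in LN 1 to 4, in FPKM (-0.49 ± 0.43, adjusted p = 0.619), with overlap, and did not pass. Tcf7, a factor of resting T cells, stood at -0.81 ± 0.28, adjusted p = 0.153. For some genes the call ended without 1 library, namely Dapl1 (without any 1 library other than LN 1 and LN 3, adjusted p 0.0554 to 0.0725), Gpr18 (without any 1 library other than WT tumor 4, adjusted p 0.0542 to 0.113) and Ms4a4b (without any 1 library, adjusted p 0.0503 to 0.107).

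Genes near the T cell receptor gave 3 higher and 1 lower of 36 (1 higher without WT tumor 3). Cd3e stood at 196, 160.1 and 111 in WT tumor 2 to 4 and 52.5, 46.7, 63.7 and 67.3 in LN 1 to 4, in FPKM (1.4 ± 0.29, adjusted p = 0.0138), and Sla, an adaptor that limits receptor signals, rose by 2.48 ± 0.55, adjusted p = 0.0219. Dgka, a lipid kinase that lowers receptor signals, fell by 1.68 ± 0.21 on the log2 scale, adjusted p = 0.000531, at 78.1, 74.4 and 61.9 in WT tumor 2 to 4 and 219, 216, 232 and 252 in LN 1 to 4, in FPKM. The third to rise was Cd28, above. Receptor segments themselves gave 3 higher and 10 lower of 74 (5 lower without LN 1 or WT tumor 2, and 1 higher without WT tumor 2), with a median of -1.76. Without segments that entered through 1 group only, Trbv17, Trbv29 and Traj6 among them, 3 were higher and 4 lower of 64. Trbv17, a variable segment, was listed at 0 in all WT tumor libraries and stood at 24.5, 21.1, 76.9 and 21.3 FPKM in LN (-4.97 ± 0.60, adjusted p = 0.000376). Trbj2-1, a joining segment, stood at 0, 1.49 and 0 in WT tumor 2 to 4 and 77.9, 178, 93 and 181 in LN 1 to 4, in FPKM (-6.52 ± 0.79, adjusted p = 0.000383), and Trbv29 at 0.264, 0.422 and 0.197 in WT tumor 2 to 4 and 31.5, 41.5, 6.72 and 23.9 in LN 1 to 4, in FPKM (-4.14 ± 0.63, adjusted p = 0.00202). The constant region Trbc2, which every receptor using that cluster shares, fell by 0.56 ± 0.13 on the log2 scale, adjusted p = 0.0291. Among alpha chain joining segments Traj12 rose by 1.73 ± 0.33, adjusted p = 0.00889, and Traj6 fell by 4.92 ± 0.80 on the log2 scale, adjusted p = 0.00336. Segments are short, and reads can be split among near-identical copies, so these values are uncertain. Calls ended without 1 library for Cd3e (without WT tumor 2 or WT tumor 3, adjusted p 0.0547 to 0.0689), Sla (without LN 2, LN 3 or WT tumor 3, adjusted p 0.0571 to 0.0993) and Trbc2 (without any 1 library other than LN 3 and WT tumor 3, adjusted p 0.0566 to 0.119).

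**Figure D3:**
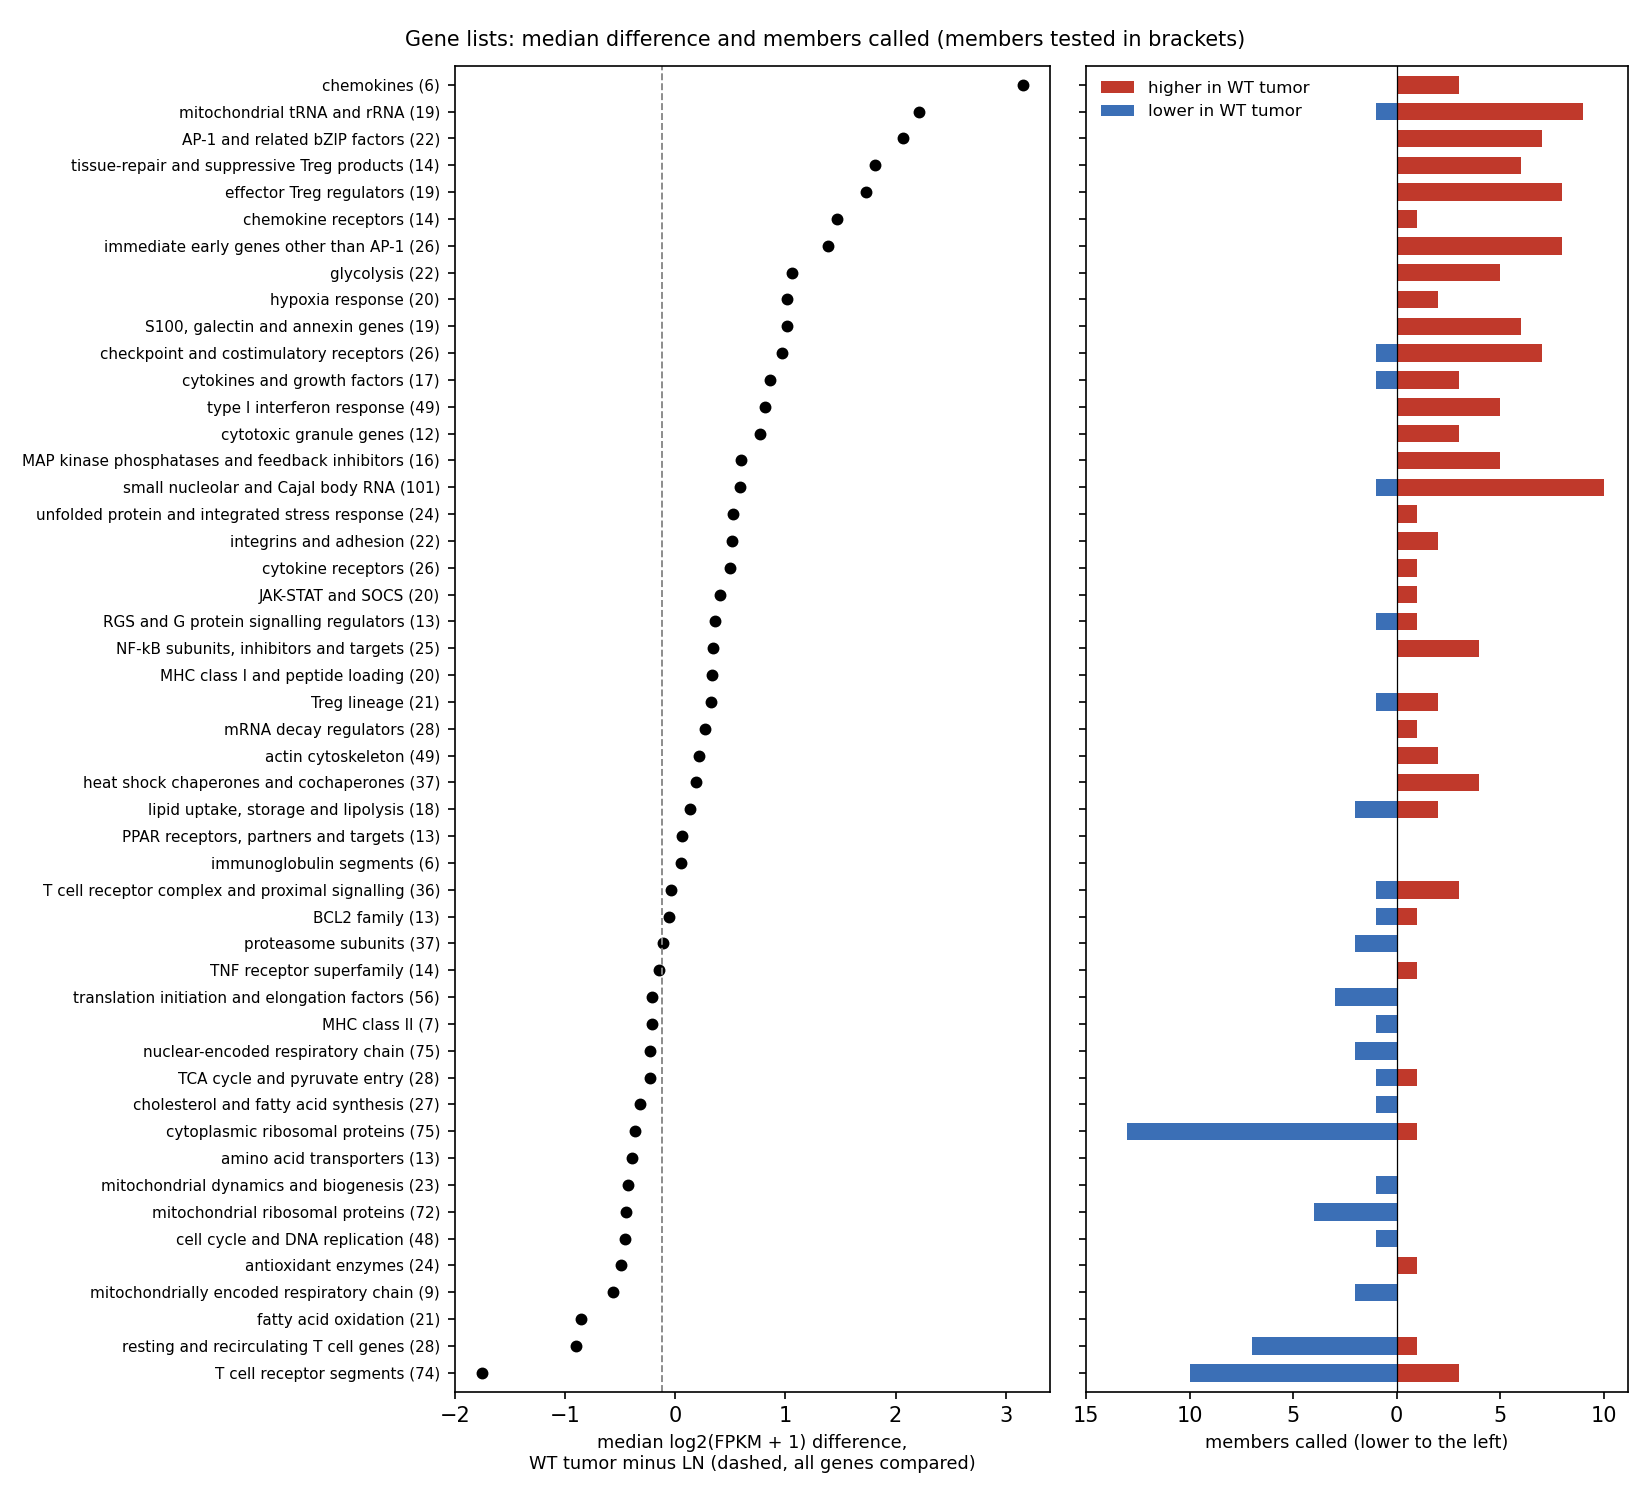
For each gene list with at least 6 genes tested, the median log2(FPKM + 1) difference, WT tumor minus LN (left, dashed line at the median of all 8740 genes), and the number of its members called higher (red) or lower (blue, to the left) in WT tumor (right). Numbers in brackets are members tested. Cytoplasmic ribosomal proteins had the most members called lower, 13, and chemokines the highest median, 3.16. That median rests on 6 genes tested of 33 in the files, of which 4 remain without genes that entered through 1 group only. The medians shown include such genes.

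Some ribosomal protein genes fell. Of 75 tested 13 fell and 1 rose (10 fell without LN 1, WT tumor 2 or WT tumor 3), 62 differences were below 0, and the median was -0.36 against -0.12 for all genes. In all they made up 14.8 to 15.7% of FPKM in WT tumor and 20.6 to 20.9% in LN. Rpl10, of the large subunit, stood at 1529, 1401 and 1465 in WT tumor 2 to 4 and 2627, 2718, 2511 and 2989 in LN 1 to 4, in FPKM (-0.89 ± 0.12, adjusted p = 0.000765). Rps7, of the small subunit, stood at 347, 536 and 506 in WT tumor 2 to 4 and 980.5, 985, 875 and 1040.2 in LN 1 to 4, in FPKM (-1.09 ± 0.16, adjusted p = 0.0019). The differences of the 13 that fell ran from -1.09 (Rps7) to -0.49 (Rpl35). Rps21 rose by 0.53 ± 0.12, adjusted p = 0.0234, but did not pass after quantile normalization (0.06, adjusted p = 0.855) or after rescaling to the protein-coding total (0.40, adjusted p = 0.0835). Under those scalings 23 and 21 ribosomal protein genes fell and none rose. Ribosomal proteins have many near-identical pseudogenes, between which reads can be split. Mitochondrial ribosomal proteins gave 4 lower of 72 (1 without LN 1, LN 2 or LN 4), among them Mrps18c (-1.7 ± 0.33, adjusted p = 0.0102). Elongation factor Eef1a1 fell by 0.93 ± 0.19 on the log2 scale, adjusted p = 0.0122. It was 1 of 3 translation factors of 56 that fell (none without WT tumor 2). Leaving out 1 library ended the calls of Rps21 (without any 1 library other than LN 3 and WT tumor 4, adjusted p 0.054 to 0.0993), Rpl35 (without any 1 library other than WT tumor 2, adjusted p 0.0669 to 0.139) and Eef1a1 (without WT tumor 2 or WT tumor 3, adjusted p 0.0538 to 0.0604).

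Nuclear genes of respiration gave 2 lower of 75, Ndufv2 (-2.01 ± 0.41, adjusted p = 0.0132) and Ndufa4 (-1.29 ± 0.28, adjusted p = 0.0193), both linked to the respiratory chain. Gfer, a sulfhydryl oxidase of mitochondrial protein import, fell by 4.03 ± 0.65 on the log2 scale, adjusted p = 0.00289, at 0.945, 0.126 and 2.7 in WT tumor 2 to 4 and 26.7, 49.5, 38.6 and 19.99 in LN 1 to 4, in FPKM. The 48 cell cycle genes tested gave 1 call, the tubulin regulator Stmn1, which fell by 2.59 ± 0.61 on the log2 scale, adjusted p = 0.0314. The proliferation marker Mki67 stood at 5.59, 2.94 and 8.0 in WT tumor 2 to 4 and 4.79, 12.2, 17.9 and 12 in LN 1 to 4, in FPKM (-0.93 ± 0.60, adjusted p = 0.477), with overlap. Of 37 proteasome genes 2 fell, Psma4 and Psmd14, by 1.64 and 2.37 on the log2 scale. Mvd, an enzyme of cholesterol synthesis, fell by 2.72 ± 0.67 on the log2 scale, adjusted p = 0.0409, alone among 27 genes of cholesterol and fatty acid synthesis. The TCA cycle enzyme gene Suclg2 fell by 2.57 ± 0.65 on the log2 scale, adjusted p = 0.0467. It and Acod1 were the calls among 28 TCA cycle genes, or Suclg2 alone of 27 without Acod1. None of 20 genes of MHC class I and peptide loading passed. Lost when 1 library was left out were the calls of Ndufa4 (without LN 3, LN 4, WT tumor 3 or WT tumor 4, adjusted p 0.0582 to 0.0825), Stmn1 (without any 1 library other than WT tumor 4, adjusted p 0.0566 to 0.125), Psma4 (without any 1 library other than LN 4 and WT tumor 3, adjusted p 0.0611 to 0.0766), Psmd14 (without any 1 library other than WT tumor 4, adjusted p 0.0766 to 0.139), Mvd (without any 1 library other than WT tumor 3, adjusted p 0.0642 to 0.128) and Suclg2 (without any 1 library other than WT tumor 3, adjusted p 0.0758 to 0.137).

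The mitochondrial genome, transcribed as long precursors from both strands, changed unevenly. Its rRNA and tRNA genes gave 9 higher and 1 lower of 19 (8 higher without any 1 library other than LN 4), while its protein-coding genes gave 2 lower of 9. The first 4 genes from its origin lie end to end on the plus strand and all rose. They are mt-Tf (positions 1 to 68), mt-Rnr1 (70 to 1024), mt-Tv (1025 to 1093) and mt-Rnr2 (1094 to 2675). The tRNA for valine, mt-Tv, stood at 257, 438 and 367 in WT tumor 2 to 4 and 4.76, 2.15, 2.69 and 4.74 in LN 1 to 4, in FPKM (6.29 ± 0.45, adjusted p = 7.02e-06), and that for phenylalanine, mt-Tf, at 356, 373 and 321 in WT tumor 2 to 4 and 8.28, 3.63, 13.7 and 7.21 in LN 1 to 4, in FPKM (5.37 ± 0.50, adjusted p = 6.09e-05). The small rRNA, mt-Rnr1, rose by 1.21 ± 0.09, adjusted p = 8.74e-06, and the large rRNA, mt-Rnr2, by 0.89 ± 0.06, adjusted p = 7.02e-06. After quantile normalization mt-Rnr2 did not pass. That scaling gives the highest gene of each library, here mt-Rnr2, the same value, so it cannot show this difference. On the minus strand mt-Nd6, a subunit of complex I (13552 to 14070), fell by 1.52 ± 0.15 on the log2 scale, adjusted p = 9.43e-05, at 986, 725 and 726 in WT tumor 2 to 4 and 2239, 2382, 2054 and 2608 in LN 1 to 4, in FPKM. Its neighbour on that strand, mt-Te (14071 to 14139), fell as well, by 0.96 ± 0.15 on the log2 scale, adjusted p = 0.00216. Of the other minus-strand tRNA genes tested, mt-Tp rose by 2.21 ± 0.23, adjusted p = 0.000111, mt-Tc by 2.29 ± 0.30, adjusted p = 0.000765, mt-Ta by 2.88 ± 0.41, adjusted p = 0.00141, and mt-Tq by 1.5 ± 0.35, adjusted p = 0.0296. The remaining one, mt-Tn, did not pass (-0.46 ± 0.44, adjusted p = 0.654), with overlap. Among plus-strand coding genes mt-Nd2, of complex I, fell by 0.72 ± 0.18 on the log2 scale, adjusted p = 0.0439. FPKM of genes this short rest on few positions, and whether counting used strand is not given in the sources used here. Calls ended without 1 library for mt-Nd2 (without any 1 library other than LN 1 and WT tumor 4, adjusted p 0.0838 to 0.142) and mt-Tq (without any 1 library other than LN 4, adjusted p 0.0535 to 0.109).

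Small nucleolar and Cajal body RNA, guides for modifying rRNA and snRNA, gave 10 higher and 1 lower of 101 (7 higher without LN 2, LN 3, WT tumor 2 or WT tumor 3), with a median of 0.59. Without those that entered through 1 group only, 9 were higher and 1 lower of 94. Snora23 stood at 692, 584 and 472 in WT tumor 2 to 4 and 83.1, 79.2, 40.4 and 52.7 in LN 1 to 4, in FPKM (3.21 ± 0.30, adjusted p = 6.09e-05), and Snord47 rose by 1.09 ± 0.23, adjusted p = 0.0164. Nuclear small RNA in all made up 4.05 to 5.40% of FPKM in WT tumor and 2.84 to 3.10% in LN. The largest difference among these was that of Gm22748, at 969, 849.7 and 803 in WT tumor 2 to 4 and 25.9, 7.99, 0.342 and 42.9 in LN 1 to 4, in FPKM (6.32 ± 1.37, adjusted p = 0.0204), which lies inside the Odc1 gene, itself higher in WT tumor. Reads of the 2 cannot be told apart where they overlap. For some genes the call ended without 1 library, namely Snord47 (without LN 2, LN 3, WT tumor 2 or WT tumor 3, adjusted p 0.0549 to 0.071) and Gm22748 (without any 1 library other than LN 1 and LN 4, adjusted p 0.0526 to 0.0713).

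The other 2 groups, KO tumor and spleen, share no library with the comparison, although spleen entered the estimate of spread. KO tumor lay above spleen without overlap in 114 of the 189 genes called higher, and below it in 14, where 6.97% and 6.81% of all 8740 genes did so. Of the 126 called lower, 34 lay below spleen and 7 above. Among nuclear protein-coding genes called higher, 103 of 149 (69.1%) lay above spleen in KO tumor, against 6.87% of such genes in all. Among small RNA and mitochondrial tRNA or rRNA called higher, 8 of 32 (25%) lay above and 9 below. Of such RNA in all, 6.31% lay above spleen and 23.3% below. Areg stood at 53.3, 73.5 and 72.3 FPKM in KO tumor 1 to 3 and 0.998, 0.335, 0 and 1.94 in spleen 1 to 4, without overlap. For Fos the values were 553, 542 and 355 in KO tumor and 2.16, 5.98, 2.89 and 7.11 in spleen. Tnfrsf9 stood at 293, 227 and 226 in KO tumor and 91, 38.4, 118 and 90.01 in spleen, again without overlap. Igfbp4, among those called lower, stood at 0.0152, 0.0188 and 10.5 in KO tumor and 15.3, 9.59, 10.9 and 14.2 in spleen, with overlap. Snora23 went the other way, at 75.4, 31.3 and 41.8 in KO tumor and 223, 377, 211 and 289.7 in spleen. Foxp3 stood at 42.4, 41.7 and 25.7 in KO tumor and 21.1, 16.9, 27.8 and 8.67 in spleen, with overlap. Tissue, genotype and library preparation cannot be told apart in these 2 groups.

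**Figure D4:**
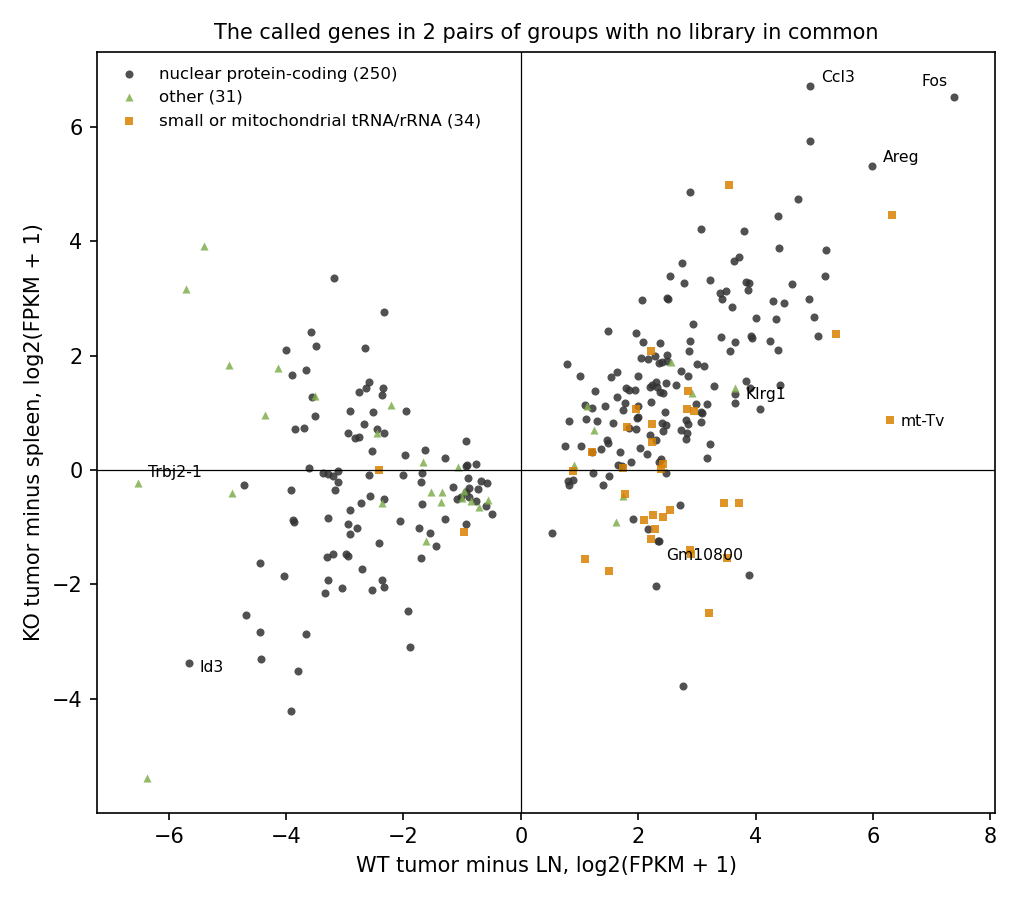
Log2(FPKM + 1) differences of the 315 called genes, WT tumor minus LN (x axis) and KO tumor minus spleen (y axis), with marks by gene class. Most protein-coding genes higher in WT tumor lie above 0 on the y axis, Fos, Areg and Ccl3 among them, while small RNA spread to both sides of 0.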

How the data were processed

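Gene expression was measured by RNA sequencing of Tregs in 14 libraries, of which 3 WT tumor and 4 LN libraries were compared. Per the submitters' processing notes the tools were Cufflinks 2.2.1, Cuffdiff, DESeq2, Bowtie2 2.2.9, TopHat2 2.1.1 and Trimmomatic, and the build was mm10 (GRCm38). Which tool made which file is not given in the sources used here. The deposited values are FPKM per gene and library, made by the authors. Each gene's positions and type were taken from GENCODE M21 by gene ID. FPKM is relative to all mapped reads, so a change in abundant RNA moves every other value.

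Genes with at least 1 FPKM in 3 of the 7 libraries were kept, and log2(FPKM + 1) was fitted with limma 3.58.1 (R 4.3.3; robust, with a mean-variance trend) on 11 libraries, 4 from spleen included. Differences are WT tumor minus LN with the standard error, on that scale, which understates changes of low genes. P-values were adjusted by Benjamini-Hochberg over the 8740 genes, with a threshold of 0.05. Groups came from the sample titles. Alternatives varied the pseudocount, filter, scaling, libraries fitted, weights and replicate block, and left out each library in turn.

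The files hold no read counts. Depth was estimated from the steps between low values, where 93.4 to 96.0% of values came out whole within 0.1 read in these 7 libraries, and gives no interval for single values. The 49 gene lists, the cell markers and the genes were chosen with earlier results of these data known. The rule named all members past the threshold in each list, in each direction at most 15 genes of largest difference (mean of at least 10 FPKM in the higher group, no overlap) and the 5 highest genes each way, and the text gives a part of these. Genes named that did not pass were chosen after their values were seen. Promoters came from RefSeq (GRCm38.p6), with 6442 of the 8740 genes matched.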

Additional observations from a re-analysis of the deposited data

Results flagged for a closer look

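Of the 162 named genes with values in the comparison, 16 had 1 LN library that stood apart from the other 3, by a gap to its nearest neighbour divided by the range above Dixon's critical value for 4 samples. Chance flags about 1 in 20 such groups of 4, and the 3 WT tumor libraries are too few for this check. Where the other 3 values are 0, as for Areg, Fosb and Pmaip1, the ratio is 1.0 for any value above 0. The rate of 1 in 20 does not hold for these genes. LN 4 stood apart with the highest value for Areg (gap of 1.0, at 0.359 FPKM with the rest at 0), Fosb (1.0), Fosl2 (0.839, 4.70 FPKM) and Ifit3b (0.936, 8.53 FPKM), and with the lowest for Aldoa (0.908, 35.9 FPKM) and mt-Rnr2 (0.834, 22484 FPKM). LN 3 was highest for Bhlhe40 (0.911, 1.14 FPKM), Hba-a2 (0.967, 323 FPKM), Lipe (0.856, 16.8 FPKM), Slc16a3 (0.861, 2.23 FPKM) and Trbv17 (0.888, 76.9 FPKM), and lowest for Tcf7 (0.961, 102 FPKM). LN 1 was highest for Klf2 (0.896, 439 FPKM) and Pmaip1 (1.0, 0.0355 FPKM). LN 2 was highest for Bcl2 (0.833, 59.6 FPKM) and Cxcl10 (0.833, 6.53 FPKM).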

How the results depend on the processing

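No call changed sign under any of the 20 alternatives run. Leaving out 1 library gave 196 to 292 calls, 118 to 167 higher and 67 to 125 lower. The total was 196 without LN 2 and 200 without WT tumor 3, and the count lower was 67 to 78 without any 1 LN library and 82 without WT tumor 3. Without the filter 78 genes were lower, with 239 calls among 14895 genes tested. Deviations of same-numbered WT tumor and LN libraries from their group means correlated at -0.0032, -0.0311 and -0.0035 for numbers 2, 3 and 4. Pairs with different numbers ran from -0.0126 to 0.0215. These values cannot tell whether same-numbered libraries share a mouse, since other variation between libraries may hide that, and the labels do not say. With the replicate number as a block 201 genes passed, 133 higher and 68 lower. The share of calls that were higher was 60% and moved to 50% after rescaling to the protein-coding total (173 higher and 173 lower), which moved the median of all genes by -0.10, and quantile normalization moved it by 0.11 (194 higher and 150 lower). The other settings gave 233 to 386 calls, with 233 where only protein-coding genes were tested. The cause of these shifts was not tested. FPKM give no counting interval, so the smaller depth of WT tumor limits low genes by an unknown amount.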

Other observations

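Apart from Plac8, which the naming rule gives, the genes named here were chosen after their values were seen. Neighbouring genes moved together at some places. The GTPase genes Gimap4, Gimap6 and Gimap7 of immune cells lie 9.52 and 10.4 kb apart on chromosome 6 and rose by 1.23, 1.46 and 2.83 (adjusted p = 0.0156, 0.00568 and 0.00801). Ctla2a and Ctla2b, protease inhibitor genes 36.7 kb apart on chromosome 13, rose by 2.75 and 2.55, and reads can be split between such similar copies. Odc1, the first enzyme of polyamine synthesis, stood at 174, 109.9 and 113 in WT tumor 2 to 4 and 7.65, 8.55, 9.74 and 13 in LN 1 to 4, in FPKM (3.63 ± 0.41, adjusted p = 0.00024).

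Sqstm1, a receptor that delivers tagged cargo to autophagy, rose by 1.57 ± 0.34, adjusted p = 0.0197. Among receptors, Crlf2, which binds TSLP, rose by 1.85 ± 0.47, adjusted p = 0.0446. Il17rb, a chain of the IL-25 receptor, entered through LN libraries only. It was listed at 0 in all WT tumor libraries and stood at 11.2, 29.1, 1.67 and 5.65 FPKM in LN 1 to 4 (-3.17 ± 0.75, adjusted p = 0.0321). Plac8, a small protein gene of immune cells, rose by 4.99 ± 0.94, adjusted p = 0.00889, at 46.2, 37.8 and 100.4 in WT tumor 2 to 4 and 4.21, 0.773, 0.0331 and 0.0776 in LN 1 to 4, in FPKM. Calls ended without 1 library for Gimap4 (without LN 2, WT tumor 2 or WT tumor 3, adjusted p 0.051 to 0.0782), Ctla2a (without any 1 library, adjusted p 0.0912 to 0.141), Ctla2b (without any 1 library, adjusted p 0.0772 to 0.126), Sqstm1 (without LN 2, LN 3, WT tumor 3 or WT tumor 4, adjusted p 0.0502 to 0.0872), Crlf2 (without any 1 library other than WT tumor 4, adjusted p 0.0569 to 0.171) and Il17rb (without any 1 library other than LN 3, adjusted p 0.0534 to 0.1).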
